A study of Drosophila melanogaster with 8 samples.

Results

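Messenger RNAs of 10 cleavage and polyadenylation factors were followed across 8 RNA-seq libraries of the Drosophila melanogaster larval central nervous system. The factors are Cpsf160, Cpsf100, Cpsf73 and Fip1 of the cleavage and polyadenylation specificity factor, CstF50, CstF64 and su(f) of the cleavage stimulation factor, Cpsf6 of cleavage factor I, and Pcf11 and cbc of cleavage factor II. They were chosen by symbol as core subunits of the machinery, and all 10 were found among the 17807 genes of the table. All 10 also passed the filter on low values, which 10575 genes did. Total RNA came from the central nervous system dissected from first instar (L1) larvae of 3 genotypes. elav5/fne larvae, with deletion alleles of both elav and fne, gave 3 libraries. elav5 larvae, with the same elav deletion alone, gave 2 libraries. The reference was Canton-S, a standard wild-type strain, with 3 libraries. Larvae were viable homozygotes picked by a visible marker, and neither the age in hours, the extent of either deletion nor the number of animals per library is given in the labels. Nothing says whether replicate libraries hold different animals, and p-values may therefore reflect technical spread alone.

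Cleavage and polyadenylation make the 3' end of nearly every messenger RNA. In the mammalian and yeast complexes where the roles were worked out, CPSF reads the polyadenylation signal and cuts the transcript, CstF binds the GU-rich element downstream of the cut, cleavage factor I binds upstream elements and biases the choice among sites, and cleavage factor II couples the cut to the end of transcription. elav and fne encode RNA-binding proteins of the ELAV/Hu family, which in fly neurons favour distal polyadenylation sites and so give long 3' UTRs. The study compared these genotypes to examine that 3' UTR landscape. The values here are reads summed over whole genes, so they give the share of a library's reads that came from each factor. That share depends on the length of the transcripts as well as their number, and it does not show where any transcript was cut.

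Levels are given as CPM, a gene's reads divided by the library total and scaled so that each library sums to 1000000. A library held between 30038106 and 38056274 reads in genes. The detection floor of 3 reads was worth 0.0788 to 0.0999 CPM, counting error alone considered, and the lowest value of a factor in any library rested on 125 reads. Differences are log2 ratios of CPM + 1 with their standard error (SE) from limma fitted across all 10575 tested genes, and a gene is called where the Benjamini-Hochberg adjusted p over all of them is under 0.05. All 8 libraries fitted their labels for the deleted genes. elav stood at 53.2, 61.0 and 53.7 CPM in elav5/fne, at 33.4 and 24.4 CPM in elav5, and at 602, 620 and 599 CPM in Canton-S. fne stood at 141, 179 and 127 CPM in elav5/fne, at 938 and 1129 CPM in elav5, and at 960, 1045 and 1038 CPM in Canton-S.

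Markers of cell types moved with genotype in the same libraries. All 10 neuron markers, such as unc-13 and cpx, were called lower in elav5/fne than in Canton-S, and their summed level ranged from 6591 to 7776 CPM in elav5/fne, from 13995 to 14440 CPM in elav5 and from 15887 to 16471 CPM in Canton-S. All 8 neuroblast markers, such as mira and ase, were called higher in elav5/fne than in Canton-S, with sums of 912 to 1170 CPM in elav5/fne, 247 to 280 CPM in elav5 and 196 to 207 CPM in Canton-S. Muscle markers summed to 2641 to 14970 CPM in elav5/fne, 760 to 2571 CPM in elav5 and 1237 to 1596 CPM in Canton-S. Glial marker sums were 4193 to 5210 CPM in elav5/fne, 5830 to 6808 CPM in elav5 and 4806 to 5069 CPM in Canton-S. These sums hide opposite moves, since 1 of the 8 glial markers was called higher and 2 lower in elav5/fne than in Canton-S. Over all tested genes 32.5% were called higher and 26.7% lower in this comparison, and the glial counts were not above these shares. In elav5/fne the mean of wrapper was 33.9% and that of loco 205% of the Canton-S mean. In elav5 3 of the 10 neuron markers were called lower and 3 of the 8 neuroblast markers higher, against 11.8% and 8.29% of all tested genes. Hemocyte markers summed to 448 to 875 CPM in elav5/fne, 19.9 to 171 CPM in elav5 and 250 to 395 CPM in Canton-S, 3 ranges that did not overlap. Most of each sum came from 1 gene, Ppn, with means of 588, 75.2 and 238 CPM in that order. Of the 6 hemocyte markers 3 were called higher than in Canton-S in elav5/fne, and 0 were called in either direction in elav5. Hml had a lower mean in elav5/fne than in Canton-S, 40.2 against 51.7 CPM, with overlapping libraries. Gut markers summed to 28.1 to 443 CPM in elav5/fne, 10.7 to 22.1 CPM in elav5 and 6.60 to 58.9 CPM in Canton-S. Of the marker lists only the gut list held a gene at 0, in 3 values of the elav5 libraries. In bulk tissue fewer cells of a type, less RNA per cell and fewer reads from shorter 3' UTRs cannot be told apart. Annotated 3' UTRs run from 1143 to 8785 bases for cpx and from 563 to 3669 bases for unc-13, while Gad1 and VGlut have 1 annotated 3' end each. The part of these marker shifts in the results on the factors was not tested. Among the libraries 3 stood apart. elav5/fne replicate 3 had the highest muscle and gut sums, elav5 replicate 2 had the lowest hemocyte sum, and Canton-S replicate 2 had 613 CPM of fat body transcripts where no other library exceeded 3.93 CPM.

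In elav5/fne 7 of the 10 factors were called lower than in Canton-S and 1 was called higher. The 7 were CstF50, Cpsf6, Cpsf160, CstF64, Cpsf73, cbc and Fip1, the 1 was Pcf11, and Cpsf100 and su(f) were not called. Of all tested genes 26.7% were called lower and 32.5% higher in this comparison. The median log2 difference of the 10 factors was -0.53, beside 0.07 over all tested genes. The libraries of elav5/fne and Canton-S did not overlap for 9 of the 10 factors, against 69.5% of all tested genes, and Cpsf100 was the exception. Without elav5/fne replicate 3 and elav5 replicate 2 the counts were 8 lower and 1 higher. In elav5 alone 5 factors were called lower than in Canton-S, against 11.8% of all tested genes. The 5 called lower were CstF50, Cpsf160, CstF64, Fip1 and Cpsf6, and the median of the 10 was -0.45, beside -0.04 over all tested genes. By limma 0 factors were called higher, and the count was also 0 at an unadjusted p under 0.05, by edgeR and by DESeq2. With 8.29% of all tested genes called higher, 0 of 10 is near the share over all genes. The other lists of RNA 3' end and RNA polymerase II genes described below also had 0 called higher in elav5. The libraries of elav5 and Canton-S did not overlap for 8 of the 10 factors, against 53.6% of all tested genes. The elav5 count moved with single libraries. It was 3 without Canton-S replicate 1, Canton-S replicate 2, elav5 replicate 1 or elav5 replicate 2, and 7 without elav5/fne replicate 3, which enters through the shared estimate of the spread. Both comparisons use the same Canton-S libraries, so their values are not independent of each other.

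**Figure D1:**
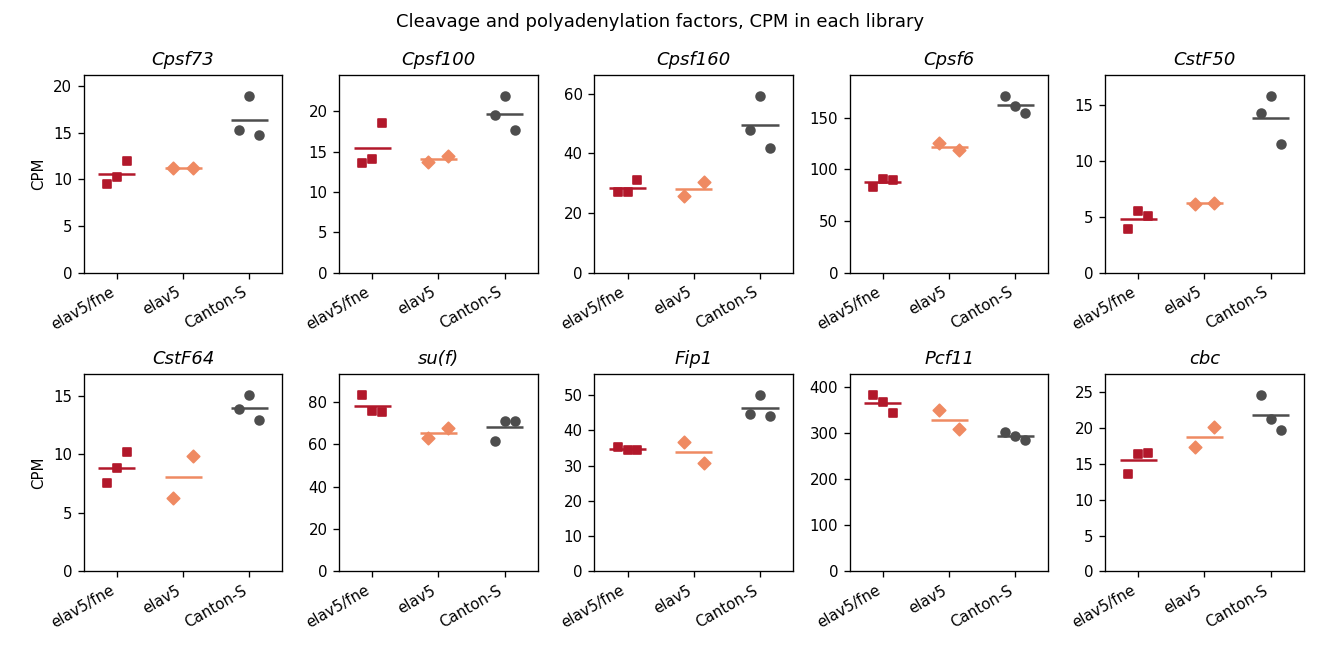
CPM of each factor in every library, with 1 panel per gene, 1 point per library and a line at the mean of each genotype, on linear axes that start at 0. The elav5/fne points lie below all Canton-S points for 7 factors, above them for su(f) and Pcf11, and overlap them for Cpsf100.

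CPSF holds the nuclease and its scaffold. Cpsf160 is the large scaffold subunit around which the signal-reading module is built. It stood at 27.1, 26.9 and 31.2 CPM in elav5/fne, at 25.8 and 30.4 CPM in elav5, and at 47.7, 59.3 and 41.8 CPM in Canton-S. Every mutant library was thus below every Canton-S library, and the mutants overlapped each other. The elav5/fne mean was 57.3% of the Canton-S mean, a log2 difference of -0.77 (SE 0.14, limma adjusted p = 0.0022). The elav5 mean was 56.6% of the Canton-S mean, a log2 difference of -0.79 (SE 0.16, limma adjusted p = 0.014). That second call was lost without elav5 replicate 1, at an adjusted p of 0.063, while over all 21 alternative settings the adjusted p lay between 0.0002 and 0.063.

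Cpsf73 is the endonuclease that cuts the transcript. It stood at 9.50, 10.2 and 11.9 CPM in elav5/fne, at 11.2 and 11.2 CPM in elav5, and at 15.3, 18.9 and 14.8 CPM in Canton-S. The Canton-S libraries were again above all mutant libraries. The log2 difference of elav5/fne from Canton-S was -0.58 (SE 0.13, limma adjusted p = 0.0063), and this call was kept under all 21 alternatives, with adjusted p between 6.8e-05 and 0.025. The difference of elav5 from Canton-S was -0.50 (SE 0.15) and missed the threshold with a limma adjusted p of 0.051. It passed under 5 alternatives, and its adjusted p ranged from 0.036 to 0.15.

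Cpsf100 is the relative of Cpsf73 that lacks nuclease activity and pairs with it. It stood at 13.6, 14.1 and 18.6 CPM in elav5/fne, at 13.7 and 14.4 CPM in elav5, and at 19.5, 21.9 and 17.7 CPM in Canton-S. elav5/fne replicate 3, the library with the highest muscle marker sum, lay inside the Canton-S range, and the other mutant libraries lay below it. The log2 difference from Canton-S was -0.34 in elav5/fne (95% interval -0.67 to -0.01, limma adjusted p = 0.069) and -0.46 in elav5 (95% interval -0.82 to -0.09, limma adjusted p = 0.081), and neither passed. Without elav5/fne replicate 3 both passed, at adjusted p of 0.012 and 0.033. TMM scaling (0.028), median-ratio scaling (0.022), quantile normalization (0.0036), edgeR (0.032) and DESeq2 (0.021) also called Cpsf100 lower in elav5/fne, within a range of 0.0036 to 0.2 over all alternatives.

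Fip1 binds U-rich RNA and brings the poly(A) polymerase to CPSF. It stood at 35.3, 34.4 and 34.4 CPM in elav5/fne, at 36.8 and 30.7 CPM in elav5, and at 44.6, 50.1 and 44.3 CPM in Canton-S. No mutant library reached the lowest Canton-S library. The elav5/fne mean was 74.9% of the Canton-S mean, with a log2 difference of -0.40 (SE 0.09, limma adjusted p = 0.0065), kept under all 21 alternatives. The elav5 difference was -0.45 (SE 0.10, limma adjusted p = 0.023), and this call was lost without Canton-S replicate 1 (0.059), Canton-S replicate 2 (0.07), elav5 replicate 2 (0.11) or both elav5 replicate 2 and elav5/fne replicate 3 (0.085), and under quantile normalization (0.085), with a range of 0.012 to 0.11 over the alternatives.

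CstF50 showed the largest difference among the 10 factors. It is the WD-repeat subunit of CstF, which in mammals contacts the C-terminal domain of RNA polymerase II. CstF50 stood at 3.89, 5.48 and 5.01 CPM in elav5/fne, at 6.16 and 6.23 CPM in elav5, and at 14.2, 15.8 and 11.5 CPM in Canton-S. The genotypes did not overlap, with elav5/fne lowest and Canton-S highest. The elav5/fne mean was 34.7% of the Canton-S mean, a log2 difference of -1.35 (SE 0.16, limma adjusted p = 0.00024). The elav5 mean was 44.8% of the Canton-S mean, a log2 difference of -1.03 (SE 0.18, limma adjusted p = 0.0097). Both calls were kept under all 21 alternatives, where the log2 difference ranged from -1.71 to -0.94 in elav5/fne and from -1.15 to -0.74 in elav5. The adjusted p reached 0.0019 in elav5/fne and 0.049 in elav5, the latter just under the threshold.

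CstF64 is the subunit whose RNA recognition motif binds the downstream element. It stood at 7.57, 8.81 and 10.2 CPM in elav5/fne, at 6.29 and 9.85 CPM in elav5, and at 13.8, 15.1 and 12.9 CPM in Canton-S. All mutant libraries lay below Canton-S, and the pair of elav5 libraries differed from each other more than any of the elav5/fne libraries did. The log2 difference was -0.61 in elav5/fne (SE 0.18, limma adjusted p = 0.019) and -0.75 in elav5 (SE 0.20, limma adjusted p = 0.035). The elav5/fne call was lost without Canton-S replicate 1 (0.052), Canton-S replicate 2 (0.063), elav5/fne replicate 1 (0.06) or elav5/fne replicate 2 (0.051), in a range of 0.002 to 0.063. The elav5 call was lost under edgeR (0.054), with no filter (0.059), and without any of Canton-S replicate 1 (0.093), 2 (0.1) or 3 (0.063), elav5 replicate 1 (0.15) or elav5/fne replicate 2 (0.061), in a range of 0.015 to 0.15.

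su(f), the fly CstF77 that bridges the other CstF subunits, was not called in any comparison. It stood at 83.2, 75.7 and 75.2 CPM in elav5/fne, at 63.1 and 67.6 CPM in elav5, and at 61.6, 71.1 and 71.0 CPM in Canton-S. The elav5/fne libraries were above all others and the elav5 libraries lay within the Canton-S range. The log2 difference from Canton-S was 0.20 in elav5/fne (95% interval 0.01 to 0.39, limma adjusted p = 0.068) and -0.05 in elav5 (95% interval -0.27 to 0.16, limma adjusted p = 0.72), and neither passed. No alternative called either of them, though the sign of the elav5 value turned under quantile normalization and DESeq2.

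Cpsf6 is the subunit of cleavage factor I that joins the RNA-binding subunit Cpsf5. It stood at 83.2, 90.7 and 89.4 CPM in elav5/fne, at 125 and 119 CPM in elav5, and at 171, 161 and 155 CPM in Canton-S. The genotypes formed 3 separate ranges, lowest in elav5/fne and highest in Canton-S. The elav5/fne mean was 54.1% of the Canton-S mean, a log2 difference of -0.88 (SE 0.07, limma adjusted p = 2.3e-05), the smallest p of the 10 factors. The elav5 mean was 75.1% of the Canton-S mean, a log2 difference of -0.41 (SE 0.08, limma adjusted p = 0.011), and that call was lost without elav5 replicate 2, at an adjusted p of 0.056 in a range of 0.0009 to 0.056. An annotated long non-coding RNA, CR45409, shares 20 exon bases with Cpsf6 on the same strand and averaged 5.35 CPM over the 8 libraries.

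Cpsf6 was also the 1 factor called between the mutants. Its elav5/fne mean was 72.0% of the elav5 mean, a log2 difference of -0.47 (SE 0.08, 95% interval -0.64 to -0.30, limma adjusted p = 0.0018), and it was kept under all 21 alternatives with values between -0.59 and -0.43. In this comparison 16.7% of all tested genes were called lower and 26.8% higher. The other 9 factors were not called, with log2 differences from -0.32 for CstF50 to 0.25 for su(f). The intervals still allow sizeable differences, from -0.74 to 0.10 for CstF50 and from -0.32 to 0.59 for CstF64. The libraries of elav5/fne and elav5 did not overlap for 4 of the 10 factors, namely Cpsf6, CstF50, su(f) and cbc, against 63.7% of all tested genes. The median over the 10 was 0.03, beside 0.14 over all tested genes, and with TMM scaling, which moved the median of all genes by -0.10, it was -0.07.

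Pcf11 binds the C-terminal domain of RNA polymerase II and acts in both cleavage and termination. It had the most reads of the 10, with 384, 368 and 345 CPM in elav5/fne, 350 and 310 CPM in elav5, and 302, 295 and 286 CPM in Canton-S. Every mutant library was above every Canton-S library. The elav5/fne mean was 124% of the Canton-S mean, a log2 difference of 0.31 (SE 0.07, limma adjusted p = 0.0077). This call was lost under median-ratio scaling alone, at 0.23 and an adjusted p of 0.056, in a range of 0.001 to 0.056. The elav5 difference of 0.16 (95% interval -0.03 to 0.35, limma adjusted p = 0.2) did not pass, though it did without both elav5 replicate 2 and elav5/fne replicate 3, at an adjusted p of 0.047 in a range of 0.047 to 0.59.

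cbc, the fly homolog of the RNA kinase Clp1 and the partner of Pcf11 in cleavage factor II, was called lower in elav5/fne where Pcf11 was called higher. It stood at 13.6, 16.4 and 16.5 CPM in elav5/fne, at 17.3 and 20.1 CPM in elav5, and at 24.6, 21.3 and 19.7 CPM in Canton-S. elav5/fne lay below both other genotypes, and elav5 replicate 2 lay inside the Canton-S range. The elav5/fne difference from Canton-S was -0.47 (SE 0.13, limma adjusted p = 0.014), lost without Canton-S replicate 1 at an adjusted p of 0.054 in a range of 0.00087 to 0.054. The elav5 difference was -0.21 (95% interval -0.54 to 0.12, limma adjusted p = 0.32) and did not pass under any alternative.

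**Figure D2:**
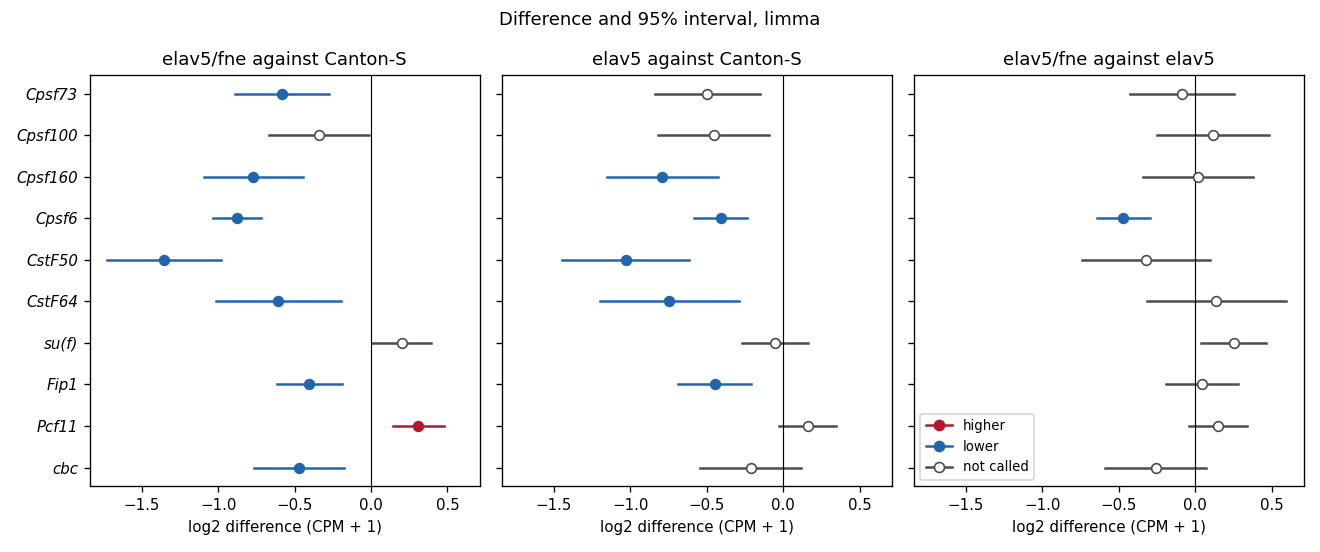
Log2 difference of CPM + 1 for each factor with its 95% interval from limma, in 1 panel per comparison. Filled blue points are called lower, filled red points higher and open points not called, so that elav5/fne against Canton-S has 7 blue and 1 red point, elav5 against Canton-S 5 blue points, and elav5/fne against elav5 the 1 blue point of Cpsf6.

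Levels of different genes were compared only after division by the summed length of their annotated exons. On this scale the order of the leading factors depended on genotype. In elav5/fne Pcf11 led with 46.8 ± 2.48 CPM per kilobase, ahead of Cpsf6 at 30.7 ± 1.39 and su(f) at 25.9 ± 1.50 (SD, n = 3). In elav5 Cpsf6 at 42.6 ± 1.57 and Pcf11 at 42.2 ± 3.64 CPM per kilobase overlapped (SD, n = 2). In Canton-S Cpsf6 led with 56.7 ± 2.86 CPM per kilobase, ahead of Pcf11 at 37.7 ± 1.06 and su(f) at 22.5 ± 1.79 (SD, n = 3). The ranges of the first 3 did not overlap in elav5/fne or in Canton-S. Fip1 and cbc followed in each genotype, at 14.4 and 9.36 CPM per kilobase in elav5/fne, at 14.0 and 11.3 in elav5, and at 19.2 and 13.2 in Canton-S, where the ranges of su(f) and Fip1 touched.

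Cpsf160, Cpsf100, Cpsf73, CstF64 and CstF50 had the lowest means per length in every genotype. In elav5/fne they ran from Cpsf100 at 6.35 CPM per kilobase through CstF64 at 6.12, Cpsf160 at 5.87 and Cpsf73 at 4.82 to CstF50 at 3.41. The ranges of Cpsf100, CstF64 and Cpsf160 overlapped, and CstF50 was below all others. In elav5 they ran from Cpsf160 at 5.79 through Cpsf100 at 5.78, CstF64 at 5.58 and Cpsf73 at 5.12 to CstF50 at 4.40. The range of CstF64 overlapped those of all 4 others, and Cpsf73 lay below both Cpsf160 and Cpsf100. In Canton-S they ran from Cpsf160 at 10.2 through CstF50 at 9.82, CstF64 at 9.64 and Cpsf100 at 8.10 to Cpsf73 at 7.46 CPM per kilobase, and each overlapped the next. By its mean CstF50 was the last of the 10 in both mutants and the seventh in Canton-S, though in elav5 replicate 1 CstF64, at 4.35 CPM per kilobase, was below CstF50, at 4.38. Pcf11 has 7 annotated transcripts, and by its longest transcript it stood at 57.9 CPM per kilobase in elav5/fne, at 52.2 in elav5, where it then led Cpsf6, and at 46.6 in Canton-S.

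**Figure D3:**
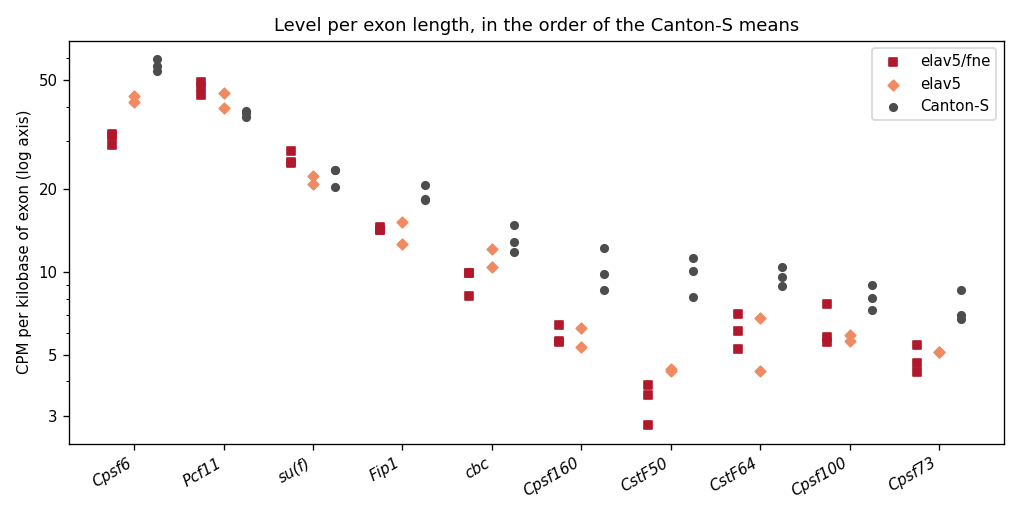
CPM per kilobase of annotated exon for each factor on a log axis, with 1 point per library and the genes in the order of their Canton-S means. Pcf11 lies above Cpsf6 in elav5/fne and below it in Canton-S, and CstF50 has the lowest mean in both mutants, with CstF64 just below it in elav5 replicate 1.

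Ratios between partners within a library describe the same shifts without reference to the library total. They are log2 ratios of CPM per kilobase, given with no test. su(f) over CstF50 averaged 2.94 ± 0.34 in elav5/fne (SD, n = 3), 2.30 ± 0.06 in elav5 (SD, n = 2) and 1.21 ± 0.28 in Canton-S (SD, n = 3). Linear ratios of the scaffold subunit to the WD-repeat subunit were thus 7.66 in elav5/fne, 4.92 in elav5 and 2.31 in Canton-S, and the 3 ranges did not overlap. CstF64 over CstF50 averaged 0.85 ± 0.18 in elav5/fne, 0.31 ± 0.45 in elav5 and -0.02 ± 0.13 in Canton-S, with elav5 overlapping Canton-S. Pcf11 over cbc averaged 2.33 ± 0.23 in elav5/fne, 1.90 ± 0.28 in elav5 and 1.52 ± 0.13 in Canton-S, and every elav5/fne library was above every other library. Cpsf6 over its partner Cpsf5 averaged -0.42 ± 0.16 in elav5/fne, 0.13 ± 0.19 in elav5 and 0.42 ± 0.12 in Canton-S. By summed exon length Cpsf6 was thus the more abundant of the pair in all Canton-S libraries and the less abundant in all elav5/fne libraries. Cpsf5 has 2 annotated 3' ends with 3' UTRs of 423 to 1375 bases, so which of the pair is more abundant may depend on the length taken.

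Within CPSF 3 ratios were taken. Cpsf160 over Cpsf100 averaged -0.10 ± 0.13 in elav5/fne, 0.00 ± 0.12 in elav5 and 0.33 ± 0.10 in Canton-S, and no mutant library overlapped Canton-S. Cpsf73 over Cpsf100, the nuclease over its inactive partner, averaged -0.39 ± 0.09 in elav5/fne, -0.17 ± 0.05 in elav5 and -0.12 ± 0.07 in Canton-S. The elav5/fne libraries were below all others for this ratio. Fip1 over Cpsf160 averaged 1.29 ± 0.13 in elav5/fne, 1.27 ± 0.35 in elav5 and 0.92 ± 0.16 in Canton-S, and elav5 replicate 2 lay inside the Canton-S range.

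**Figure D4:**
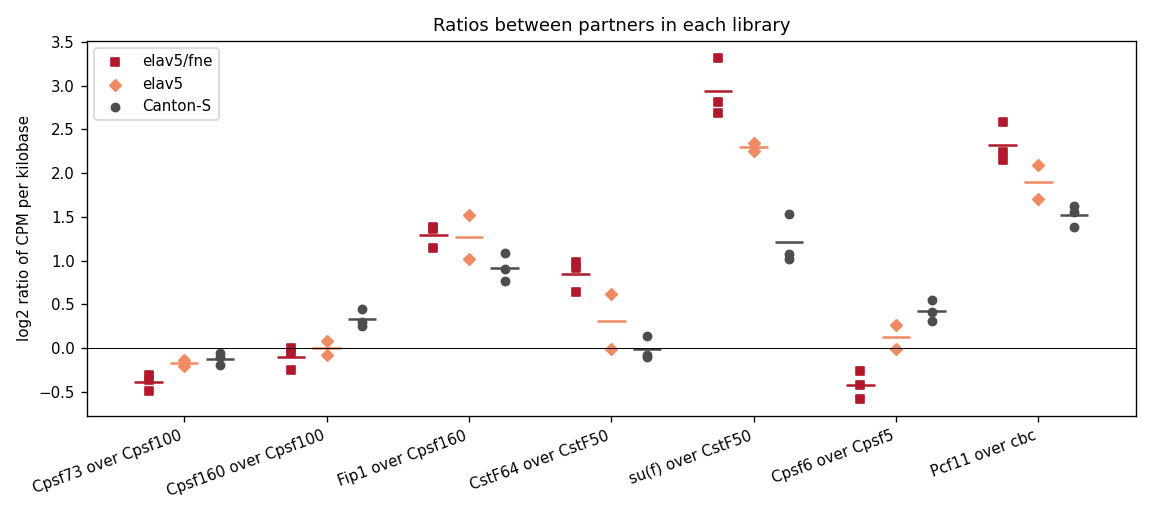
Log2 ratio of CPM per kilobase for 7 pairs of partners, with 1 point per library and a line at the mean of each genotype. The widest separation is that of su(f) over CstF50, at 2.94 in elav5/fne, 2.30 in elav5 and 1.21 in Canton-S.

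For correlations the 10 factors were split into su(f) and Pcf11, with higher means in elav5/fne than in Canton-S, and the 8 with lower means. The split rests on these same values, so the signs of r below follow largely from it. No r of pairs of other genes was set beside them. Among the 28 pairs of these 8 genes Pearson's r of log2(CPM + 1) ran from 0.58 to 0.97 with a median of 0.87, highest between Cpsf160 and Cpsf73. su(f) and Pcf11 gave r from -0.89 to -0.20 in their 16 pairs with those 8, lowest between Pcf11 and Cpsf6. These values describe 8 libraries that share 3 genotype means and library totals. Differences between replicates entered them too. In Canton-S replicate 2 was the highest library for 7 of the 10 factors and replicate 3 the lowest for 9.

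For each factor the tested gene with the most similar pattern was found by Pearson's r over the same 8 libraries. Cpsf160 was closest to pont (r = 0.996), Cpsf73 to CG6195 (0.990), Cpsf100 to Coq2 (0.992) and Fip1 to futsch (0.994). CstF50 was closest to mRpS2 (0.987), CstF64 to CG12182 (0.984) and su(f) to mir-317 (0.970). Cpsf6 was closest to CG43779 (0.997), Pcf11 to CG31122 (0.981) and cbc to Trs23 (0.998). Between 66 genes, for su(f), and 975 genes, for Cpsf6, exceeded an r of 0.9, so such likeness was common. None of the 10 closest genes was another of the factors.

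Of the 10 genes 5 lie on chromosome arm 3R and 3 on 2R, in coordinates of the Ensembl annotation, which are those of dm6. CstF64 (3R:18659618-18661126, plus strand) and Cpsf73 (3R:18661121-18663552, minus strand) converge and share 6 exon bases at their 3' ends, and Cpsf100 (3R:29034573-29037062, plus strand) shares 5 with the antisense gene Slu7. CstF50 (3R:31735503-31736963, minus strand), Fip1 (3R:4485008-4487677, plus strand) and Cpsf6 (3L:8310493-8315502, minus strand) have a single annotated 3' end, as do Cpsf73, Cpsf100, CstF64 and cbc (2R:13483512-13485391, minus strand). The other 3 factors have several. Cpsf160 (2R:14497347-14503488, minus strand) has 2 annotated 3' ends with 3' UTRs of 117 to 353 bases, su(f) (X:23096771-23101431, plus strand) has 2 with 85 to 324 bases, and Pcf11 (2R:14860936-14871071, minus strand) has 4 with 226 to 692 bases. su(f) and Pcf11, the factors with higher means in elav5/fne, and Cpsf160, which was called lower, thus share this feature, and reads per gene do not say which end was used.

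Beside the 10 factors, 8 other core genes of the machinery were examined. Of these 3 were called lower and 1 higher in elav5/fne than in Canton-S, with a median log2 difference of -0.10, and 2, Sym and Pabp2, were called lower in elav5, with a median of -0.18. Neither elav5 call held without Canton-S replicate 1, Canton-S replicate 2 or either elav5 library. Pabp2, the nuclear poly(A)-binding protein gene, stood at -0.41 in elav5 (SE 0.09, limma adjusted p = 0.02), a call lost under 7 alternatives, with adjusted p up to 0.076. Sym, the symplekin scaffold that joins CPSF and CstF, averaged 23.7 CPM in elav5/fne, 23.4 CPM in elav5 and 37.5 CPM in Canton-S, a log2 difference from Canton-S of -0.66 in elav5/fne (SE 0.15, limma adjusted p = 0.0057) and of -0.66 in elav5 (SE 0.16, limma adjusted p = 0.028). The elav5 call was lost when any 1 library of Canton-S or elav5 was left out, with adjusted p of 0.06 to 0.13. Clp, the fly CPSF30 zinc-finger subunit that contacts the signal, was called lower in elav5/fne at -0.58 (SE 0.21, limma adjusted p = 0.042), a call lost under 10 alternatives, among them leaving out any 1 library other than elav5/fne replicate 3, with adjusted p up to 0.13. snama, a homolog of the RBBP6 cofactor of cleavage, was lower at -0.28 (SE 0.07, limma adjusted p = 0.0091). hrg, the poly(A) polymerase, was called higher at 0.20 (SE 0.07, limma adjusted p = 0.045), a call lost under 13 alternatives, among them leaving out any 1 Canton-S library or elav5/fne replicate 1 or 2, with adjusted p up to 0.28. Cpsf5 and Wdr33, the signal-binding partner of Clp, were not called, with differences of -0.04 (95% interval -0.24 to 0.15) and -0.11 (95% interval -0.35 to 0.13).

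Neighbouring steps of RNA 3' end metabolism gave mixed counts. Of 9 termination and nuclear poly(A) genes 3 were called lower in elav5/fne, namely ZC3H3 at -0.51 (adjusted p = 0.0014), the poly(A)-binding zinc-finger gene Nab2 at -0.51 (adjusted p = 0.0013) and the exonuclease gene Rat1 at -0.42 (adjusted p = 0.013), all from limma. The Rat1 call was lost without Canton-S replicate 1, at an adjusted p of 0.052 in a range of 0.00053 to 0.052. Of 14 Integrator genes, whose complex cleaves small nuclear RNAs, 3 were higher and 2 lower, but this balance turned with the setting. The higher count was 1 under median-ratio scaling and edgeR and without Canton-S replicate 2 or any 1 elav5/fne library, and the lower count was 4 under TMM, median-ratio and quantile scaling and DESeq2. IntS10 was higher at 0.81 (limma adjusted p = 0.0062), while IntS9, a relative of Cpsf100, and IntS14 were lower at -0.54 (limma adjusted p = 0.0076) and -0.49 (limma adjusted p = 0.0037). Of the 3 U1 snRNP proteins, which restrain premature polyadenylation, snRNP-U1-70K and snf were lower at -0.80 (limma adjusted p = 0.0014) and -0.66 (limma adjusted p = 0.0027), and snRNP-U1-C was not called, at -0.19 (limma adjusted p = 0.1). It was called lower under TMM (0.045), median-ratio scaling (0.04), quantile normalization (0.024), edgeR (0.044) and DESeq2 (0.043), in a range of 0.024 to 0.26.

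Of 12 deadenylation and poly(A)-binding genes 4 were called higher and 3 lower in elav5/fne than in Canton-S, with 1 lower without Canton-S replicate 3 or elav5/fne replicate 2. The cytoplasmic poly(A)-binding protein gene pAbp was higher at 0.71 (SE 0.09, limma adjusted p = 0.00038), the deadenylase subunit gene PAN2 was higher at 0.62 (SE 0.07, limma adjusted p = 0.00013), and the CCR4-NOT deadenylase gene Pop2 was lower at -0.56 (SE 0.08, limma adjusted p = 0.00081). Of 11 tested RNA polymerase II subunits 1 was higher and 4 lower, with 2 lower without Canton-S replicate 2. Polr2A, the largest subunit, which carries the C-terminal domain, was higher at 0.64 (SE 0.07, limma adjusted p = 0.00016), while Polr2C and Polr2E were lower at -1.10 (SE 0.13, limma adjusted p = 0.0002) and -0.56 (SE 0.15, limma adjusted p = 0.013). Polr2D was listed at 0 in all libraries. Of 5 tested genes of histone 3' end formation, Lsm10 was higher at 0.80 (SE 0.17, limma adjusted p = 0.0042), FLASH was lower at -0.35 (SE 0.13, limma adjusted p = 0.046) and 3 were not called. Lsm10 reached 1 CPM in the elav5/fne libraries alone, so it was tested only because it was high there. Its call is therefore no independent result, and the filter at a mean of 5 CPM dropped the gene. The FLASH call was lost under 8 alternatives, among them leaving out any 1 library other than Canton-S replicate 1 and elav5/fne replicate 3, with adjusted p up to 0.14, and the Lsm10 call was lost under quantile normalization, also at 0.14. In elav5 against Canton-S 3 of 9 termination, 3 of 14 Integrator, 2 of 5 histone and 1 of 3 U1 genes were called lower. So were 1 of 11 RNA polymerase II genes and 0 of 12 deadenylation genes, beside 11.8% of all tested genes. Each of these counts above 0 fell to 0 under some alternative settings. No comparison of the shares between these lists was tested.

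**Figure D5:**
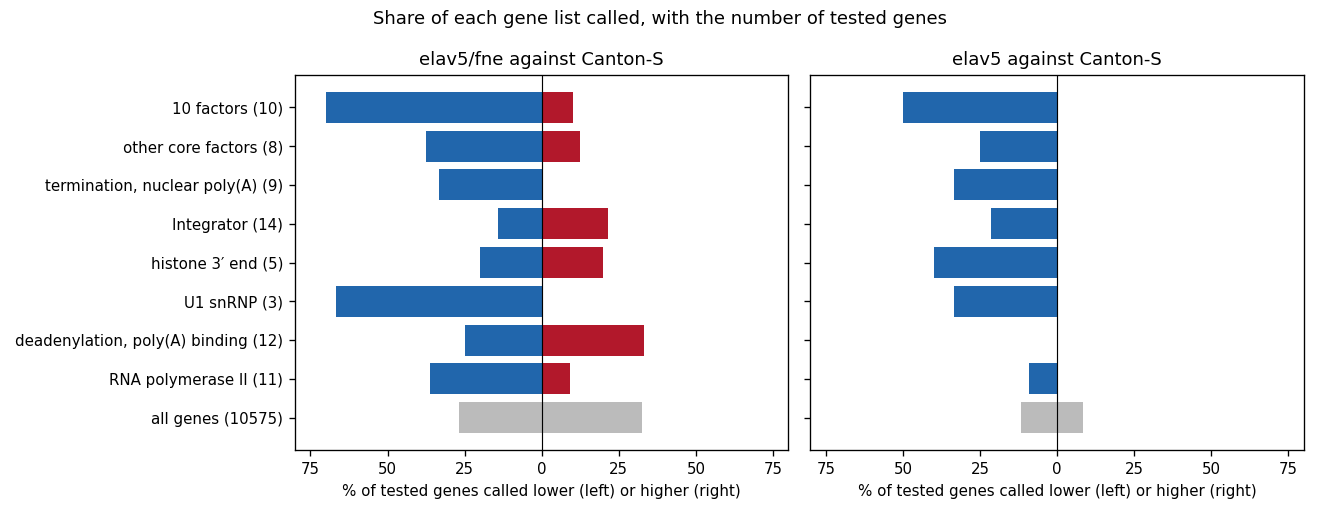
Share of the tested genes of each list called lower (blue, to the left) and higher (red, to the right), against Canton-S, in elav5/fne and in elav5. The grey bar gives all 10575 tested genes, 26.7% lower and 32.5% higher in elav5/fne and 11.8% lower and 8.29% higher in elav5.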

How the data were processed

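The authors deposited CPM per gene for the 8 libraries. Reads had been aligned to dm6 by HISAT2, per the submitters' processing notes. The TruSeq Stranded Total RNA kit was used with 0.1 ug of RNA, per the labels' protocols. The sources used here give no aligner version, counting tool, gene models or strand setting, so reads of a gene and an overlapping antisense gene may be mixed. CPM steps gave whole reads for 100% of values (tolerance 0.01), and reads per library were recovered from them. Genes reaching 1 CPM in 2 or more libraries entered limma 3.58.1 (R 4.3.3, mean-variance trend) on log2(CPM + 1), with 3 genotype means over all 8 libraries, so that the 2 elav5 libraries share the spread of the others. A log2 difference on this scale understates the change of low genes. Adjustment was by Benjamini-Hochberg over all tested genes at 0.05. The script was tested on simulated data.

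The 10 factors and the gene lists were chosen with earlier results of these data known. Beside the 10 factors, elav and fne, the genes named are the 3 of each other list with the smallest p between elav5/fne and Canton-S, the 2 markers of a list with the highest mean, and the gene most like each factor. Wdr33, Cpsf5, Polr2D and a few others were named after their values were seen. Exon lengths came from the Ensembl annotation of BDGP6.54. The 21 alternatives were no filter, a filter on means under 5 CPM, pseudocounts of 0.1 or 5 CPM, TMM, median-ratio and quantile scaling, edgeR 4.0.16 and DESeq2 1.42.0 on recovered reads, no trend, only the groups compared, the replicate number as a block, each library left out, and 2 libraries left out.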

Additional observations from a re-analysis of the deposited data

Results flagged for a closer look

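Differences between the mutants were tested directly as elav5/fne minus elav5, and 11 of the genes named by rule passed (limma adjusted p under 0.05). Over all tested genes 26.8% were called higher and 16.7% lower. Outside the 10 factors and the 8 other core genes, the named genes had the smallest p of their lists between elav5/fne and Canton-S. That choice used the same elav5/fne libraries and favours passing here, so the 11 cannot be read against these shares. Other genes of the lists, Ars2, IntS6, mxc, Rga and PAN3, also passed, as did most neuron, neuroblast and glial markers and some muscle, gut and hemocyte markers. These were named here after their values were seen. Since both mutants are set against the same Canton-S libraries, elav5/fne minus elav5 is the difference between their effects. Among the 10 factors only Cpsf6 passed, at -0.47 on the log2 scale (limma adjusted p = 0.0018). Of the nuclear factors, Pabp2 stood at 0.37 (limma adjusted p = 0.013) and Nab2 at -0.38 (limma adjusted p = 0.013). The Pabp2 call was lost under median-ratio scaling (0.059), quantile normalization (0.18), edgeR (0.052) and without both elav5 replicate 2 and elav5/fne replicate 3 (0.063). The Nab2 call was lost without elav5 replicate 2 (0.069) and without both libraries (0.073). IntS10 stood at 1.42 (limma adjusted p = 0.001), with means of 13.8 ± 1.39 CPM in elav5/fne (SD, n = 3), 4.53 ± 0.753 CPM in elav5 (SD, n = 2) and 7.56 ± 1.81 CPM in Canton-S (SD, n = 3). Lsm10 stood at 0.94 (limma adjusted p = 0.0052), from values of 1.37 to 2.13 CPM in elav5/fne and 0.399 to 0.479 CPM in elav5. It met the filter on low values through the elav5/fne libraries alone, so this call is no independent result. snf stood at -0.59 (limma adjusted p = 0.011), PAN2 at 0.45 (limma adjusted p = 0.002), pAbp at 0.53 (limma adjusted p = 0.0045) and Pop2 at -0.39 (limma adjusted p = 0.012). The snf call was lost without elav5 replicate 2 (0.059) and without both libraries (0.078), and the Pop2 call without elav5 replicate 2 (0.07). Polr2A stood at 0.75 (limma adjusted p = 0.0002) and Polr2C at -0.66 (limma adjusted p = 0.0074).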

How the results depend on the processing

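Across the 21 alternatives the calls of CstF50, Cpsf6, Cpsf160, Cpsf73 and Fip1 in elav5/fne, of CstF50 in elav5 and of Cpsf6 between the mutants were kept. For CstF50 in elav5 the adjusted p reached 0.049. Factors called lower in elav5/fne ranged from 5 to 8 when 1 library was left out, and those in elav5 from 3 to 7. Genes called in elav5 came to 2124, with 806 to 2589 when 1 library was left out, fewest without elav5 replicate 2 (1053 without Canton-S replicate 2 and 904 without Canton-S replicate 1). Replicate numbers did not pair the samples (same-number correlations of deviations from -0.36 to 0.11), and with the replicate block 932 genes were called and 3 factors were lower in elav5 (CstF64 at an adjusted p of 0.072 and Fip1 at 0.071) and Nab2 was lost between the mutants (0.054), while the counts of the other comparisons stayed within 1.5 times. Under median-ratio scaling 0 factors were higher in elav5/fne. Without both elav5 replicate 2 and elav5/fne replicate 3, 1 factor was higher in elav5. Quantile normalization gave 1 higher and 4 lower factors between the mutants, and medians of the 10 of -0.75 in elav5/fne against Canton-S and -0.23 between the mutants, and it moved the median of all genes by -0.18 and -0.21. Of genes called, 54.9% were higher in elav5/fne against Canton-S (41.3% with quantile), 41.3% in elav5 (52.4% with DESeq2), and 61.6% between the mutants (51.3% with TMM, 50.6% with median-ratio, 43.0% with quantile, 50.4% with edgeR and 52.0% with DESeq2).

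Signs turned only for differences near 0 that were not called. su(f) in elav5 was 0.0048 with quantile and 0.0044 with DESeq2. Between the mutants Cpsf160 was -0.0867 (TMM), -0.0972 (median-ratio), -0.216 (quantile), -0.094 (edgeR) and -0.102 (DESeq2), and Fip1 was -0.0627, -0.0733, -0.164, -0.0684 and -0.0791 in the same order and -0.0771 without both libraries. Cpsf100 was -0.195 and CstF64 -0.234 with quantile. With 1 library left out the ranges were -0.0182 to 0.195 for Cpsf100, -0.0947 to 0.134 for Cpsf160, -0.148 to 0.425 for CstF64 and -0.0828 to 0.171 for Fip1 between the mutants, and in elav5/fne against Canton-S -0.0892 to 0.0226 for Cpsf5 (0.0226 without both libraries) and -0.1003 to 0.0148 for Pabp2. The cause was not tested.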
